A study of Mus musculus with 3 samples.

Results

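The comparison described here set NIH3T3 cells overexpressing mtYAP against untransduced NIH3T3 cells, across all genes of a mouse genome array. For each probe set, the log2 expression level of the control array was subtracted from that of the mtYAP array, and the differences were averaged over the probe sets that name 1 gene alone. This gave 18193 genes from 34945 of the 45037 probe sets, and the comparison used 2 of the 3 arrays of the series. A gene at a level of at least 6 was treated as clearly measured, as were 7051 genes on either array and 5846 on both.

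NIH3T3 is an immortalized fibroblast line of embryonic NIH/Swiss origin that has lost the Ink4A and Ink4B genes of inhibitors of cyclin-dependent kinases. The control array is labelled untransduced. The mtYAP cells carried a retroviral vector with Flag-tagged YAP in which the serine at position 112 was replaced by alanine, and the YAP cells carried the wild-type protein in the same kind of vector. Both lines were survivors of puromycin selection, and all cells grew in D-MEM with 10% calf serum. Infection, vector and selection differed between the arrays together with mtYAP and cannot be told apart from it. Each condition was measured on 1 array, so no difference has an error or a test, and every value below compares 1 array with another. The study turned to arrays to look into growth at confluence, but the density at which RNA was taken is not stated in the labels or in the array methods. The control array's description field refers to an embryonic stem cell experiment.

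YAP is a transcriptional co-activator with no DNA-binding domain of its own, which reaches promoters and enhancers mainly through the TEAD transcription factors. The Hippo pathway, a chain of kinases that ends in LATS1 and LATS2, phosphorylates YAP and so keeps it in the cytosol or marks it for degradation. The replaced serine is a LATS site, and loss of it leaves more YAP in the nucleus. In fibroblasts YAP is known for driving growth past confluence and for its part in matrix production.

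The fibroblast label was checked against marker genes. Of 12 fibroblast markers, 11 reached a level of 6 on either array. Among the 12, 10 read lower in mtYAP, with a median difference of -0.55, and the falls of Pdgfrb, Pdgfra, S100a4 and Thy1 are given below. Vim, the intermediate filament vimentin, read 12.92 in control and 12.76 in mtYAP. Col1a2, a chain of type I collagen, read 11.74 and 11.04. None of the 12 epithelial, 10 pluripotent stem cell, 6 endothelial, 8 macrophage and leukocyte or 6 skeletal muscle markers reached 6 on either array. Of 5 adipocyte markers Lpl, lipoprotein lipase, reached 6, at 9.78 and 9.86, and Fabp4, a fatty acid carrier, was the 1 raised, from 3.76 to 5.45. The defining epithelial gene Cdh1 stood at 1.84 in control and 2.30 in mtYAP, and the stem cell gene Pou5f1 at 2.96 and 3.33. In RNA from a whole culture, fewer cells of a type and less RNA per cell cannot be told apart. Yap1 read 8.57 in control and 7.89 in mtYAP, but the part of the mRNA that its probe sets read is not known here. The introduced sequence is also of mouse, so this neither checks it nor gives the level of the endogenous gene.

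A log2 difference above 1, which is a 2-fold difference, was counted as raised and one below -1 as lowered. Over all genes 686 were raised (3.77%) and 739 were lowered (4.06%), around a median difference of 0.02. Larger differences were more often downward, with 147 genes below -2 and 106 above 2. Genes measured clearly held most of the raised and lowered genes. Of the 7051 genes at 6 on either array, 545 were raised and 585 lowered, or 7.73% and 8.3%. Of the 11142 genes under 6 on both, 141 and 154 were, or 1.27% and 1.38%. The lists below are set beside the shares over all genes, which are lower than those of clearly measured genes. Of the raised genes 338 were at 6 or more on both arrays, and of the lowered genes 313. Where a gene had several probe sets, all of them moved the same way in 338 of 350 raised genes and in 314 of 335 lowered genes. The difference between the highest and the lowest probe set of a gene had a median of 0.38 on the log2 scale.

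**Figure D1:**
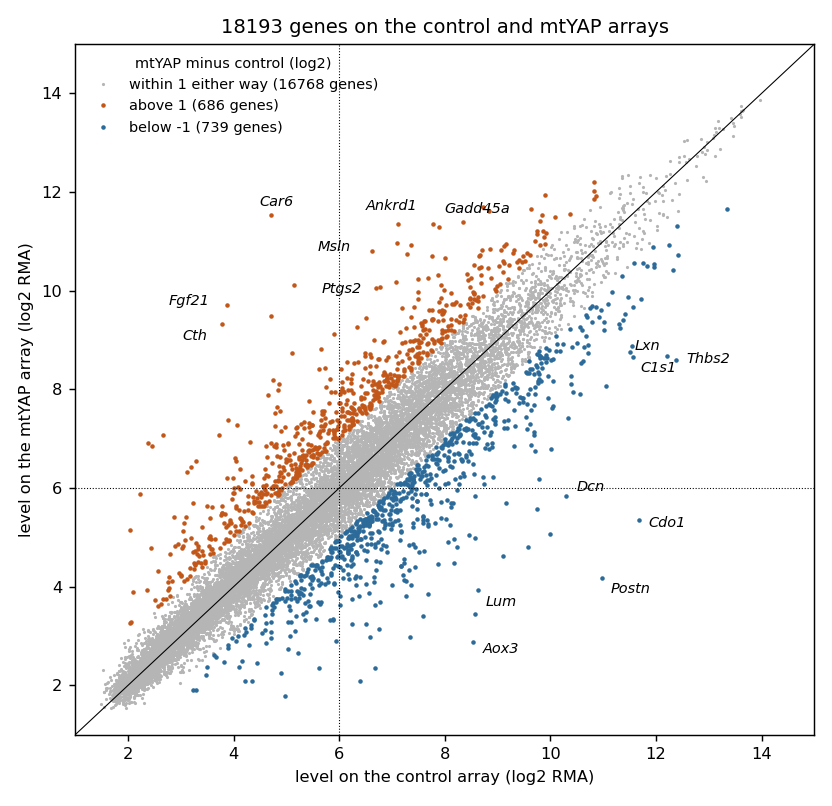
Level of each of 18193 genes on the control array (horizontal axis) and the mtYAP array (vertical axis), both as log2 RMA values, with the diagonal and the level of 6 drawn. The 686 raised genes lie above the diagonal and the 739 lowered genes below it, and Postn, Cdo1, Lum and Aox3 lie farthest below among the genes labelled.

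Among genes at 6 or more on both arrays, the 12 largest rises were between 2.96 and 4.23. Ankrd1, a nuclear ankyrin-repeat protein, read 7.12 in control and 11.35 in mtYAP, a difference of 4.23. Msln, the surface protein mesothelin, went from 6.62 to 10.80. Ptgs2, the inducible cyclooxygenase that makes prostaglandin precursors, went from 6.70 to 10.06, a difference of 3.36 on average over 2 probe sets at 2.98 and 3.75. These 3 genes were 10.3 to 18.8 times as high in mtYAP as in control. Ppp1r15a, the subunit that directs a phosphatase to the initiation factor eIF2, differed by 3.88. Gadd45a, a DNA damage and stress protein, differed by 3.58, and Trib3, a pseudokinase induced by stress, by 3.57. Steap1, a metalloreductase of the plasma membrane, differed by 3.46. Ero1a, the oxidase that drives disulphide bond formation, differed by 3.40 and Psph, the phosphatase of the last step of serine synthesis, by 3.10. The matricellular growth factor Ccn2 and the annexin Anxa3 followed with 3.05 and 2.96, and the secreted protein Angptl6 with 3.31. Of these 12 genes, 7 were read by 1 probe set each.

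The 12 largest falls among genes at 6 or more on both arrays were between -3.77 and -2.67. Thbs2, the anti-angiogenic matrix protein thrombospondin 2, read 12.37 in control and 8.60 in mtYAP, a difference of -3.77 with 3 probe sets between -4.31 and -3.43. Lxn, the carboxypeptidase inhibitor latexin, went from 12.21 to 8.68. Rin2, which activates the endocytic GTPase RAB5, went from 9.78 to 6.19. Their control levels were 11.6 to 13.6 times those of mtYAP. Mylip, a ubiquitin ligase that degrades the LDL receptor, differed by -2.99, and Tm7sf2, a reductase of cholesterol synthesis, by -2.94. Pmp22, a membrane protein first found in growth-arrested NIH3T3 cells, differed by -2.92. C1s1, a protease of the complement cascade, differed by -2.91 and Col6a3, a chain of type VI collagen, by -2.74. Plpp3, a lipid phosphatase of the cell surface, differed by -2.76, the adhesion protein Clmp by -2.67, the matrix protein Sned1 by -3.21 and Tmem119 by -2.69. On the YAP array all 24 genes named in these 2 groups lay between the control and the mtYAP level. That array shares the control, so its values are given beside the others and not as a separate result.

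**Figure D2:**
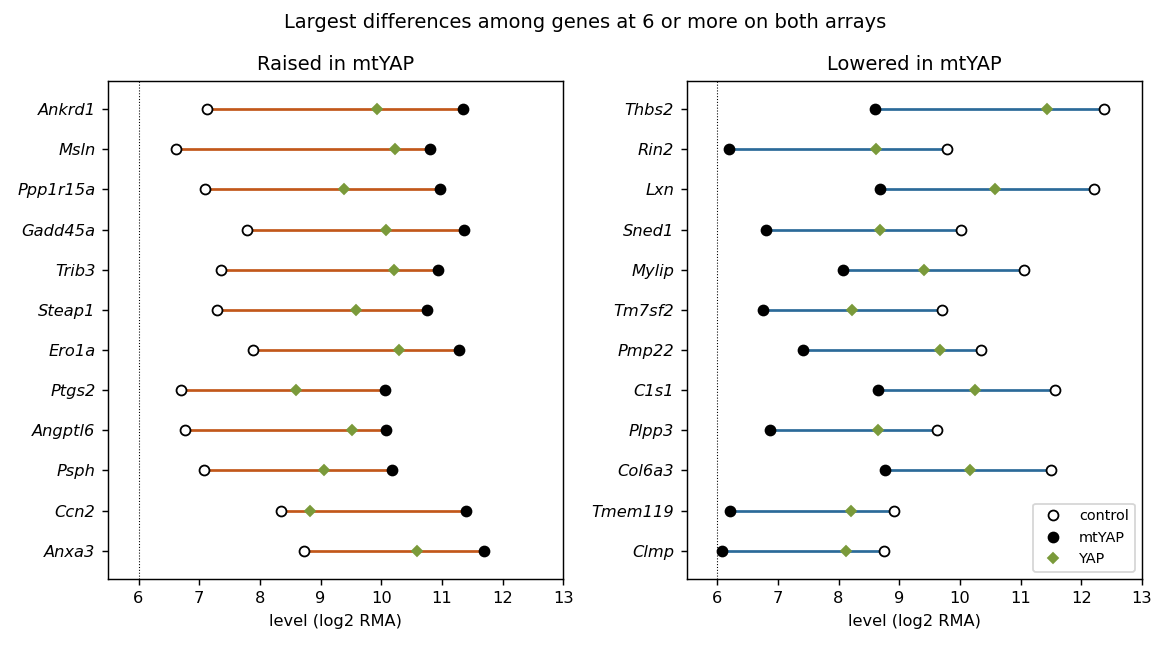
Levels (log2 RMA, horizontal axis) of the 12 raised and 12 lowered genes with the largest difference among genes at 6 or more on both arrays, with control as open circles, mtYAP as filled circles and YAP as diamonds. Ankrd1 stands at 7.12 in control and 11.35 in mtYAP, and Thbs2 at 12.37 and 8.60.

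A few genes crossed from a level of 9 or more to one under 6. There were 8 in the downward direction: Postn, Cdo1, Agtr2, Ptn, Dkk3, Dcn, Ccl2 and Rasl11b. Postn, the matrix protein periostin, went from 10.97 to 4.17, and Cdo1, the dioxygenase that degrades cysteine, from 11.68 to 5.35. Agtr2, a receptor for angiotensin II, went from 10.00 to 5.06. Readings under 6 limit the size of difference that can be read, and the 3 probe sets of the secreted growth factor Ptn ran from -6.14 to -2.14. In the upward direction there were 6: Car6, Fgf21, Cth, Cdsn, Paqr3 and the unnamed transcript 5430416N02Rik. Cth, the enzyme that releases cysteine from cystathionine, went from 3.78 to 9.33, and so moved opposite to Cdo1, which consumes cysteine. Fgf21, a secreted metabolic hormone, went from 3.87 to 9.72, while Car6, a secreted carbonic anhydrase, went from 4.70 to 11.54.

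The semi-selective targets of YAP and its paralogue TAZ were the list closest to the introduced protein. Of 22 measured members, 14 reached 6 on either array, 8 were raised (36.4%, against 3.77% of all genes), 1 was lowered, and the median difference was 0.26. The raised members were Ankrd1, Gadd45a, Ccn2, Nuak2, Crim1, Ccn1, Ajuba and Amotl2. Nuak2, a kinase that promotes contractility, read 6.15 in control and 8.23 in mtYAP. Crim1, a membrane protein that binds growth factors, read 6.59 and 8.48. F3, the tissue factor of coagulation, was the lowered member and read 9.77 and 8.35. The list therefore held both strong responders and members that stayed within 0.5 of control, such as Amotl1 at 6.77 and 7.06. Of the DNA-binding partners, Tead1 read 7.36 in control and 7.38 in mtYAP, and Tead2 read 8.99 and 8.19.

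The core of the TEAD recognition sequence, GGAATG, was searched on both strands of the RefSeq promoters of build GRCm38.p6, which run from 250 bases before to 50 after each gene's start. It was present in 14.7% of 32851 promoters, in 16% of those of raised genes and in 15.1% of those of lowered genes. Of the 22 targets 16 had a promoter in the table, and 8 of 18 of their promoters (44.4%) held it. Those 8 genes, 5 of them raised, had a median difference of 1.48, and the other 8, of which 1 was raised and 1 lowered, had a median of -0.12. The contractile genes, of which none was raised, had it in 9 of 18 promoters (50%). A match is a description of the sequence and not a measured binding site. The stretches around the matches of 3 raised targets and of the contractile gene Acta2, which read 6.23 in control and 4.84 in mtYAP, are shown 5′ to 3′ on the strand of the gene with the match in capitals.
Ankrd1, chr19:36119942-36120074, minus strand: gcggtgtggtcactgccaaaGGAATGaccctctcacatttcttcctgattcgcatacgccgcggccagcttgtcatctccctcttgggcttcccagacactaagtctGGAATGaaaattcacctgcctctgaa
Ajuba, chr14:54577800-54577867, minus strand: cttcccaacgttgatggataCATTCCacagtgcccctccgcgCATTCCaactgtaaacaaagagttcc
Ccn1, chr3:145650063-145650108, minus strand: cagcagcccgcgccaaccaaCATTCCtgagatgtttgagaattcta
Acta2, chr19:34255494-34255539, minus strand: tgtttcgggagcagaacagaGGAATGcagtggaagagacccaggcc
Ankrd1 had its matches at -210 and -123 from the gene start and Ajuba, a LIM-domain inhibitor of LATS that read 7.59 in control and 9.20 in mtYAP, had them at -186 and -164. The match of Ccn1, a matricellular protein at 7.98 and 9.59, lay at -103 and that of Acta2, the smooth muscle actin, at -146.

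Genes listed for the ATF4 response mostly moved upward. ATF4 is a transcription factor whose protein is made when amino acids run short or the endoplasmic reticulum is stressed, and its targets import and make amino acids, charge tRNAs and later restrain growth. Of 42 measured members, 39 reached 6 on either array, 30 were raised (71.4%) and none was lowered, with a median difference of 1.51. Atf4 itself read 8.16 in control and 8.79 in mtYAP, with its 3 probe sets between 0.06 and 1.05. Among the regulators, Atf3 went from 5.66 to 8.82, and Chac1, which breaks down glutathione, from 7.50 to 10.24. Ddit3, the stress factor CHOP, differed by 0.96, from 2 probe sets at 0.03 and 1.89. Among the transporters, Slc7a5, the large neutral amino acid carrier, went from 8.0 to 10.66, and its partner chain Slc3a2 from 10.31 to 11.19. Of 30 amino acid transporters as a class, 16 reached 6 on either array, 7 were raised (23.3%, against 3.77% of all genes) and 2 were lowered, with a median of 0.06. Slc6a15, a carrier of branched-chain amino acids, went from 3.29 to 6.55, while Slc1a3, a glutamate carrier, went from 7.05 to 5.53. Slc38a2, which takes up glutamine and alanine and was not on the list of ATF4 response genes, went from 9.94 to 8.63. That none of the response genes was lowered holds for the list as written, whose members were chosen with earlier results of these data known.

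Of the enzymes that make serine and carry its carbon units, 9 of 19 were raised (47.4%) and none was lowered, with a median of 1.00. Psph read 7.08 in control and 10.18 in mtYAP. Mthfd2, the mitochondrial methylene-tetrahydrofolate dehydrogenase, read 7.50 and 9.82, and Shmt2, the mitochondrial serine hydroxymethyltransferase, read 6.22 and 8.21. Both mitochondrial enzymes thus differed by more than their cytosolic counterparts, Mthfd1 at 7.08 and 8.07 and Shmt1 at 5.5 and 6.62. Cytosolic aminoacyl-tRNA synthetases had 10 of 19 members raised (52.6%) and none lowered, led by the tryptophan enzyme Wars with 6.37 and 8.56. By contrast, 1 of 24 chaperones and folding enzymes of the endoplasmic reticulum was raised, Ero1a, none was lowered, and their median was -0.15. Hspa5, the main chaperone of that compartment, read 10.56 in control and 11.31 in mtYAP, and Calr, calreticulin, read 11.87 and 10.96.
The amino acid response element to which ATF4 binds was searched as TGATGNAA on both strands. It was present in 4.0% of all promoters, in 10 of 41 promoters (24.4%) of the 35 ATF4 response genes in the table and in 5 of 12 (41.7%) of the synthetases. The 10 response genes with a match had a median difference of 1.97 with 8 raised, and the 25 without had 1.25 with 16 raised. The matches of 4 raised members are shown in capitals.
Trib3, chr2:152344019-152344066, minus strand: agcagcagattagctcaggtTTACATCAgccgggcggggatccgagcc
Chac1, chr2:119351029-119351076, plus strand: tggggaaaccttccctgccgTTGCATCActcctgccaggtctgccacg
Asns, chr6:7693205-7693252, minus strand: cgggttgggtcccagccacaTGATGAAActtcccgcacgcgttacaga
Fgf21, chr7:45615602-45615649, minus strand: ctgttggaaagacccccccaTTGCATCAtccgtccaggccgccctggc
The Asns match, in the gene of asparagine synthetase, which read 9.63 in control and 11.65 in mtYAP, began at -23 from the gene start, and those of Chac1 and Fgf21 began at -193 and -139. The Trib3 match began at 14 bases past it.

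Many genes of cell division were raised. Of 49 measured mitosis genes 36 reached 6 on either array, 34 were raised (69.4%), none was lowered, all 49 were above 0, and the median was 1.28. Ect2, an exchange factor of cytokinesis, went from 6.14 to 8.55, and Cdca8, a subunit of the chromosomal passenger complex, from 6.58 to 8.72. Plk1, a kinase of mitotic entry, went from 6.05 to 7.08. In the S phase list 26 of 55 members were raised (47.3%) and none was lowered, with Mcm2 of the replicative helicase at 7.20 in control and 9.65 in mtYAP. Of 30 purine and pyrimidine synthesis genes 10 were raised (33.3%) and none was lowered, with a median of 0.84. Prps1, which makes the ribose donor of all nucleotides, went from 7.41 to 9.27. The share of cycling cells and the level per cell cannot be separated here, and the part of cell cycle state in the other differences was not tested.
The cell cycle homology region of mitotic promoters was searched as TTTGAA on both strands. It was present in 17.9% of all promoters and in 31 of 42 (73.8%) of those of the 40 mitosis genes in the table. The 29 genes with a match had a median difference of 1.13 and the 11 without had 1.33. The matches of Plk1 and Cdca8 lie past the gene start and are shown in capitals.
Plk1, chr7:122159445-122159484, plus strand: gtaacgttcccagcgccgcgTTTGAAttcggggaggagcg
Cdca8, chr4:124936879-124936924, minus strand: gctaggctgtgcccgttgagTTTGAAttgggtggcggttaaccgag

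Ribosomes are assembled in the nucleolus by factors that process and modify ribosomal RNA. Of 60 ribosome biogenesis genes, 34 were raised (56.7%), none was lowered, and the median was 1.09. Dkc1, the pseudouridine synthase of ribosomal RNA, read 7.49 in control and 9.97 in mtYAP. Nop58, a core protein of small nucleolar particles, read 8.71 and 10.82. Of 40 cytosolic ribosomal proteins, however, none was raised or lowered and the median was 0.08, and Rpl12 at 7.30 and 8.16 held the largest difference among them. Transport through the nuclear envelope lay between, with 6 of 47 nucleoporins, importins and exportins raised (12.8%) and a median of 0.59. Kpna2, an importin adaptor, read 9.81 and 11.42. In mitochondria, 2 of 74 ribosomal proteins were raised and 1 lowered with a median of 0.32, and 0 of 71 respiratory chain and ATP synthase genes were raised and 1 lowered with a median of -0.12. Those shares are at or under the 3.77% and 4.06% of all genes.

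Among the p53 targets 5 of 27 were raised (18.5%) and none was lowered. Gadd45a, which is also on the list of YAP and TAZ targets, read 7.78 in control and 11.36 in mtYAP. Eda2r, a receptor of the TNF family, read 4.72 and 6.51, and Plk3, a stress kinase, read 5.90 and 7.14. The remaining ones, the polymerase Polk and the BH3 protein Pmaip1, differed by 1.01 and 1.03, while Cdkn1a, the p53-induced inhibitor p21, read 8.59 and 9.41. Heat shock and chaperonin genes had 1 of 21 raised, Cct6a of the cytosolic chaperonin, and 1 lowered, Hspa1b, the inducible HSP70, at 9.69 and 7.13. Hspa1b has a near-identical neighbour, Hspa1a, so its probe sets may read both.

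Many genes of the extracellular matrix were lowered. Matricellular proteins had 10 of 23 members lowered (43.5%, against 4.06% of all genes), 3 raised, and a median of -0.64. Postn is described above. Smoc2, a calcium-binding matrix protein, went from 8.57 to 3.46, Sparcl1 from 7.26 to 3.82, and Mgp, which restrains calcification, from 8.18 to 4.96. The 3 raised members all belong to the CCN family: Ccn2, Ccn1, and Ccn4 at 8.56 and 9.95. Another CCN member, Ccn5, went the other way, from 6.48 to 5.37. Small leucine-rich proteoglycans, which bind collagen fibrils and set their spacing, had 5 of 15 lowered (33.3%) and none raised, with 7 at 6 or more on either array. Lum, lumican, went from 8.63 to 3.94. Dcn, decorin, went from 10.30 to 5.83, and Aspn, asporin, from 7.34 to 2.98. All 3 read under 6 in mtYAP, so no fold is given for them.

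The collagens are given by type. The 3 chains of type VI collagen, which forms beaded filaments around cells, were all lowered: Col6a1 by a log2 difference of -1.90, Col6a2 by -1.77 and Col6a3 by -2.74. Type IV collagen of basement membranes was lowered in both measured major chains, Col4a1 by -1.72 and Col4a2 by -1.33. Col16a1 went from 10.39 to 8.27. With Col12a1, which stayed under 6, this made 7 of 26 non-fibrillar collagens (26.9%), and the median of this list was 0.00, with 9 of its members at 6 or more on either array. Of 11 fibrillar collagens 2 were lowered (18.2%), Col27a1 by -1.57 and Col11a1 by -1.43, 8 were below 0 and the median was -0.35. Col1a1 read 9.94 in control and 9.15 in mtYAP, and Col3a1 read 11.09 and 10.92. Col5a2 read 10.04 and 10.93.

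The enzymes and partners of the matrix were split. Of 18 collagen processing enzymes 5 were lowered (27.8%) and 3 raised. Pcolce, which helps to cleave procollagen, went from 11.96 to 10.55, and Loxl3, a cross-linking oxidase, from 8.12 to 6.98. In the other direction Plod2, a lysyl hydroxylase of collagen telopeptides, went from 6.88 to 8.20, P4ha2, a prolyl hydroxylase, from 8.02 to 9.06, and Loxl4 from 4.36 to 6.10. Basement membrane partners included Nid2, nidogen 2, at 8.58 and 4.99, and Lama4, a laminin chain, at 7.60 and 4.73. These were the 2 lowered of 14 (14.3%). Elastic fibre genes had 3 of 15 lowered (20%), Emilin2, Emilin1 and Ltbp2, by between -1.61 and -1.51. The 2 probe sets of Emilin1 stood at -2.32 and -0.71, and the list had a median of 0.00 with 8 members above 0. Of 15 matrix metalloproteinases 3 were lowered (20%), Mmp14, Mmp2 and the low-reading Mmp3. Mmp14 went from 9.48 to 7.82 and Mmp2, which it activates, from 12.24 to 10.93. Of 5 inhibitors of such proteases 1 was raised, Timp3, from 8.56 to 10.52, and 1 was lowered, Reck, from 8.78 to 7.67. Of the integrin receptors, Itga8, for nephronectin, went from 6.58 to 2.98 and Itga6, for laminin, from 7.36 to 9.47.

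**Figure D3:**
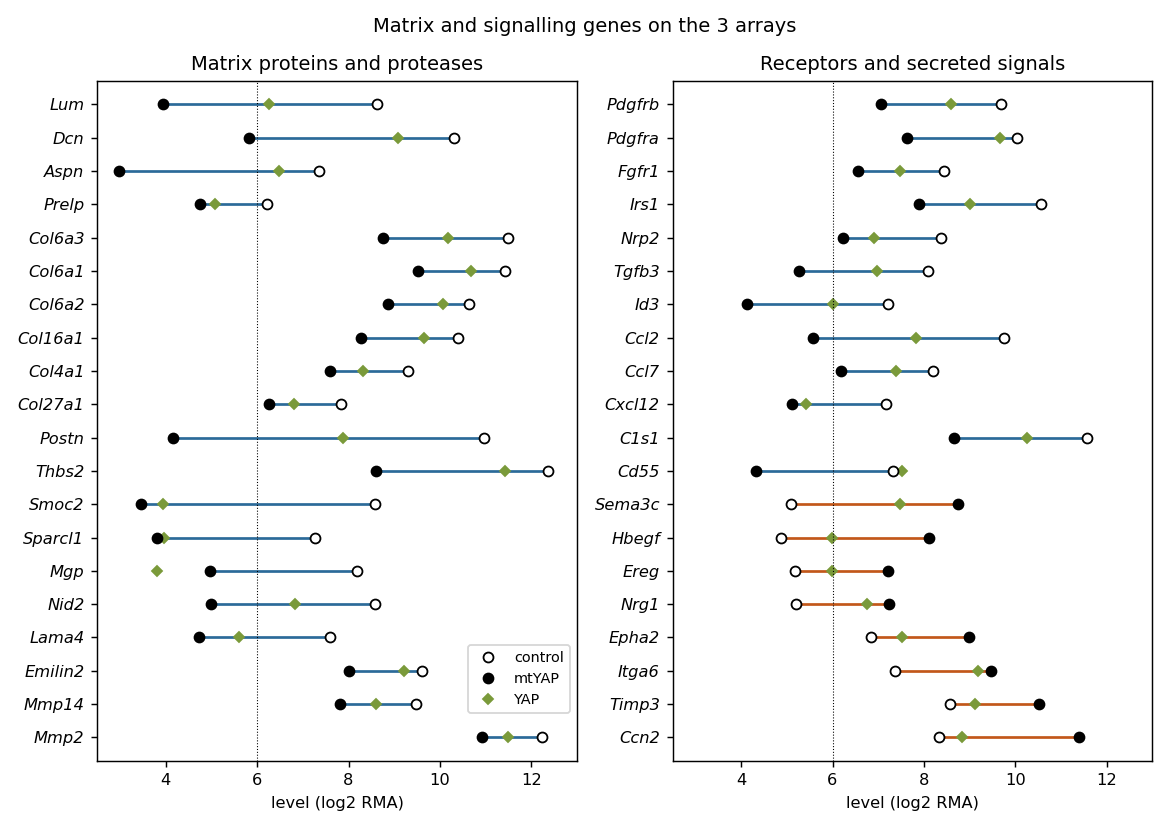
Levels (log2 RMA, horizontal axis) of matrix proteins and proteases (left) and of receptors and secreted signals (right), with control as open circles, mtYAP as filled circles and YAP as diamonds. Matrix genes such as Lum (8.63 to 3.94) run leftward from control to mtYAP, while Hbegf (4.87 to 8.11) and Ccn2 (8.34 to 11.39) run rightward.

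Growth factor receptors and ligands moved in both directions. Of the 14 PDGF and VEGF ligands and receptors 5 were lowered (35.7%) and 1 was raised. Pdgfrb went from 9.69 to 7.07 and Pdgfra from 10.03 to 7.62, so both platelet-derived growth factor receptors read lower, Pdgfra 5.30-fold and Pdgfrb 6.13-fold. Their ligand Pdgfc was the raised member, from 8.70 to 10.16. Nrp2, a co-receptor for VEGF and semaphorins, went from 8.37 to 6.24, and the ligands Vegfd and Vegfb fell by 1.57 and 1.13 on the log2 scale. Fgfr1 differed by -1.89, with 3 probe sets between -2.54 and -0.93, and Irs1, the adaptor of the insulin and IGF receptors, by -2.66. Of 14 ligands and receptors of the EGF receptor family 4 reached 6, 3 were raised (21.4%) and none was lowered, and the median was -0.01. Hbegf, the heparin-binding ligand, went from 4.87 to 8.11. Ereg, epiregulin, went from 5.18 to 7.22, and Nrg1, neuregulin, from 5.21 to 7.24. All 3 ligands were under 6 in control.

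Feedback genes of the ERK pathway, which growth factor receptors feed into, had 3 of 21 raised (14.3%) and none lowered, namely Spry1 at 5.84 and 7.95, the phosphatase Dusp4 at 6.01 and 7.90, and Dusp9, which stayed under 6. Immediate early factors did not follow, since Atf3 alone of 19 was raised while Nr4a1, Egr2, Fos and Egr3 were lowered, by between -1.26 and -1.01. Of 26 TGF-beta and BMP genes, 7 were lowered (26.9%) and 3 raised. Id3, a direct BMP readout that inhibits basic helix-loop-helix factors, went from 7.22 to 4.13. Tgfb3, a ligand, went from 8.09 to 5.26. The raised members were feedback inhibitors, Smad7 at 5.77 and 6.93, Bambi at 5.21 and 6.38, and the activin trap Fst, which stayed under 6. Guidance cues were mixed. Of 32 semaphorin, plexin and ephrin genes 11 reached 6, 3 were raised (9.4%) and 2 lowered (6.2%). Over all genes the shares were 3.77% and 4.06%. Sema3c, a secreted semaphorin, went from 5.10 to 8.73 and the receptor Epha2 from 6.85 to 8.98.

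The 5 immune lists held more lowered than raised members. Of 26 chemokines 7 reached 6 and 5 were lowered (19.2%), with none raised. Ccl2, which attracts monocytes, went from 9.75 to 5.57. Ccl8 went from 7.20 to 4.23, Ccl7 from 8.19 to 6.18, and Cxcl12, which retains stem cells and lymphocytes, from 7.17 to 5.12. The 3 probe sets of Cxcl12 did not move together and ran from -3.6 to 0.58. Cxcl5 was the remaining lowered chemokine, at 7.49 and 6.46. Of 19 complement genes, 4 reached 6 and all 4 were lowered: the regulator Cd55 at 7.32 and 4.34, the proteases C1s1 and C1ra at differences of -2.91 and -2.0, and C1qtnf6 at -1.05. Cd55 and C1qtnf6 reached 6 in control alone, so that level limit favours falls. The whole list had a median of 0.16, with 11 members above 0 and 8 below. Cd55 read 7.52 on the YAP array, close to control. In antigen presentation by MHC class I, 3 of 12 genes were lowered (25.0%), among them Tapbp, which loads peptides, at 8.80 and 6.88 and the immunoproteasome subunit Psmb10 at 7.65 and 5.89. B2m, the light chain, read 12.20 and 11.50. Interferon-stimulated genes had 7 of 37 lowered (18.9%), none raised and a median of -0.27, with Parp9 at 7.17 and 5.10 and Ifit3, an RNA-binding antiviral protein, at 6.48 and 5.0. Of 25 interleukins, receptors and related fibroblast genes 4 were lowered (16%) and 1 was raised, Ptgs2. Il18 went from 8.45 to 6.92 and Il6ra, the interleukin 6 receptor, from 6.42 to 4.84, while the low-reading Lifr and Il33 differed by -1.07 and -1.01.
The interferon response element, searched as TTTC, any 2 bases and TTTC on both strands, was present in 3.4% of all promoters and in 12 of 31 (38.7%) of those of the 27 interferon-stimulated genes in the table. Of the 12 genes with a match 4 were lowered, and of the 15 without, 2. The Ifit3 promoter is shown for its 2 matches, in capitals, at -156 and -122 from the gene start.
Ifit3, chr19:34583353-34583436, plus strand: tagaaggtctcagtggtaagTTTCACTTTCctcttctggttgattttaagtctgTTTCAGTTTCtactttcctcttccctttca

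Cholesterol synthesis genes were lower along the pathway. All 20 measured enzymes and regulators reached 6 on either array, 19 were below 0, 7 were lowered (35.0%), none was raised, and the median was -0.59. Early steps included Mvk, mevalonate kinase, at 7.89 in control and 6.41 in mtYAP, and Mvd, the decarboxylase that makes the isoprenoid unit, at 9.48 and 7.74. Late steps included Nsdhl at 11.47 and 9.87, Ebp at 9.92 and 8.55, Hsd17b7 at 7.54 and 6.19 and Dhcr7, the last reductase, at 9.12 and 7.21. Hmgcs1, at the head of the pathway, read 10.38 and 9.79, and Srebf2, its transcription factor, read 8.14 and 7.94. Fatty acid genes were mixed, with Elovl6, an elongase, lowered by -1.43 and Fads3, a desaturase-like protein, raised by 2.26.
Of 47 lysosomal genes, 35 reached 6, 11 were lowered (23.4%), none was raised, and the median was -0.67, with 42 below 0. Ctsb, a cysteine protease, read 8.71 and 7.34, and Grn, progranulin, read 11.16 and 9.97. Ctsd, an aspartic protease, read 11.36 and 10.29. Autophagy genes, which deliver cargo to lysosomes, had 2 of 26 lowered (7.7%), Atg12 and Gabarap, with a median of -0.11. Of the 26, 20 reached 6, and that share is near the 8.3% lowered among all genes at 6 on either array. The CLEAR element of lysosomal promoters, searched as TCACGTGA on both strands, was present in 1.0% of all promoters and in 6 of 45 (13.3%) of those of the 40 lysosomal genes in the table. The 6 genes with a match had a median difference of -0.72 and the 34 without had -0.69. These letters contain the E-box CACGTG, read by MYC and MAX as well as by TFEB. The stretches of Ctsd and of Gla, the galactosidase at 5.65 in control and 4.08 in mtYAP, are shown with the matches in capitals.
Ctsd, chr7:142387899-142387946, minus strand: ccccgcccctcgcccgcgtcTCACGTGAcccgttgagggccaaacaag
Gla, chrX:134601173-134601253, minus strand: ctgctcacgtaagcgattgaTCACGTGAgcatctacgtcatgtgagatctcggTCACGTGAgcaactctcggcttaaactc

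Genes that mark resting fibroblasts were lowered more often than raised, 9 against 3 of 33 (27.3% and 9.1%), with a median of -0.43. Pmp22 and Selenop, a selenium carrier, read 10.34 and 11.54 in control and 7.42 and 8.88 in mtYAP. Pik3ip1, an inhibitor of phosphatidylinositol 3-kinase, went from 7.59 to 5.36, and Gas1, a growth-arrest gene, from 9.81 to 8.66. Plagl1, itself a growth-restraining zinc finger factor, ran against the rest, from 6.33 to 9.26, as did Klf4, from 9.12 to 10.55. Of 11 cyclin-dependent kinase inhibitors and pocket proteins, 2 were lowered (18.2%), Cdkn2c (p18), from 11.32 to 9.25, and Rbl2 (p130), from 6.34 to 5.33. Cdkn2a and Cdkn2b, the INK4 genes that this line lacks, stayed under 6 on both arrays.

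The mesenchymal identity list had 7 of 33 members lowered (21.2%), none raised and a median of -0.23. Prrx2 and Prrx1, paired homeobox factors of limb and connective tissue, went from 7.16 to 4.95 and from 8.98 to 7.85. Twist2, a basic helix-loop-helix factor, went from 9.76 to 8.18. Runx1, a Runt-domain factor, went from 6.63 to 5.34. Among the fibroblast markers themselves, 4 of 12 were lowered (33.3%, against 4.06% of all genes). They were Pdgfrb and Pdgfra, the calcium-binding S100a4 at 13.34 and 11.66, and the surface protein Thy1 at 9.95 and 8.28. No epithelial marker approached a level of 6 in return. Contractile genes had 3 of 20 lowered (15%) and none raised, with 10 above 0, 10 below and a median of -0.05. The lowered ones were Myl9 at 6.66 and 4.19, Acta2, with 3 probe sets between -1.98 and -0.63, and Tns1.

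**Figure D4:**
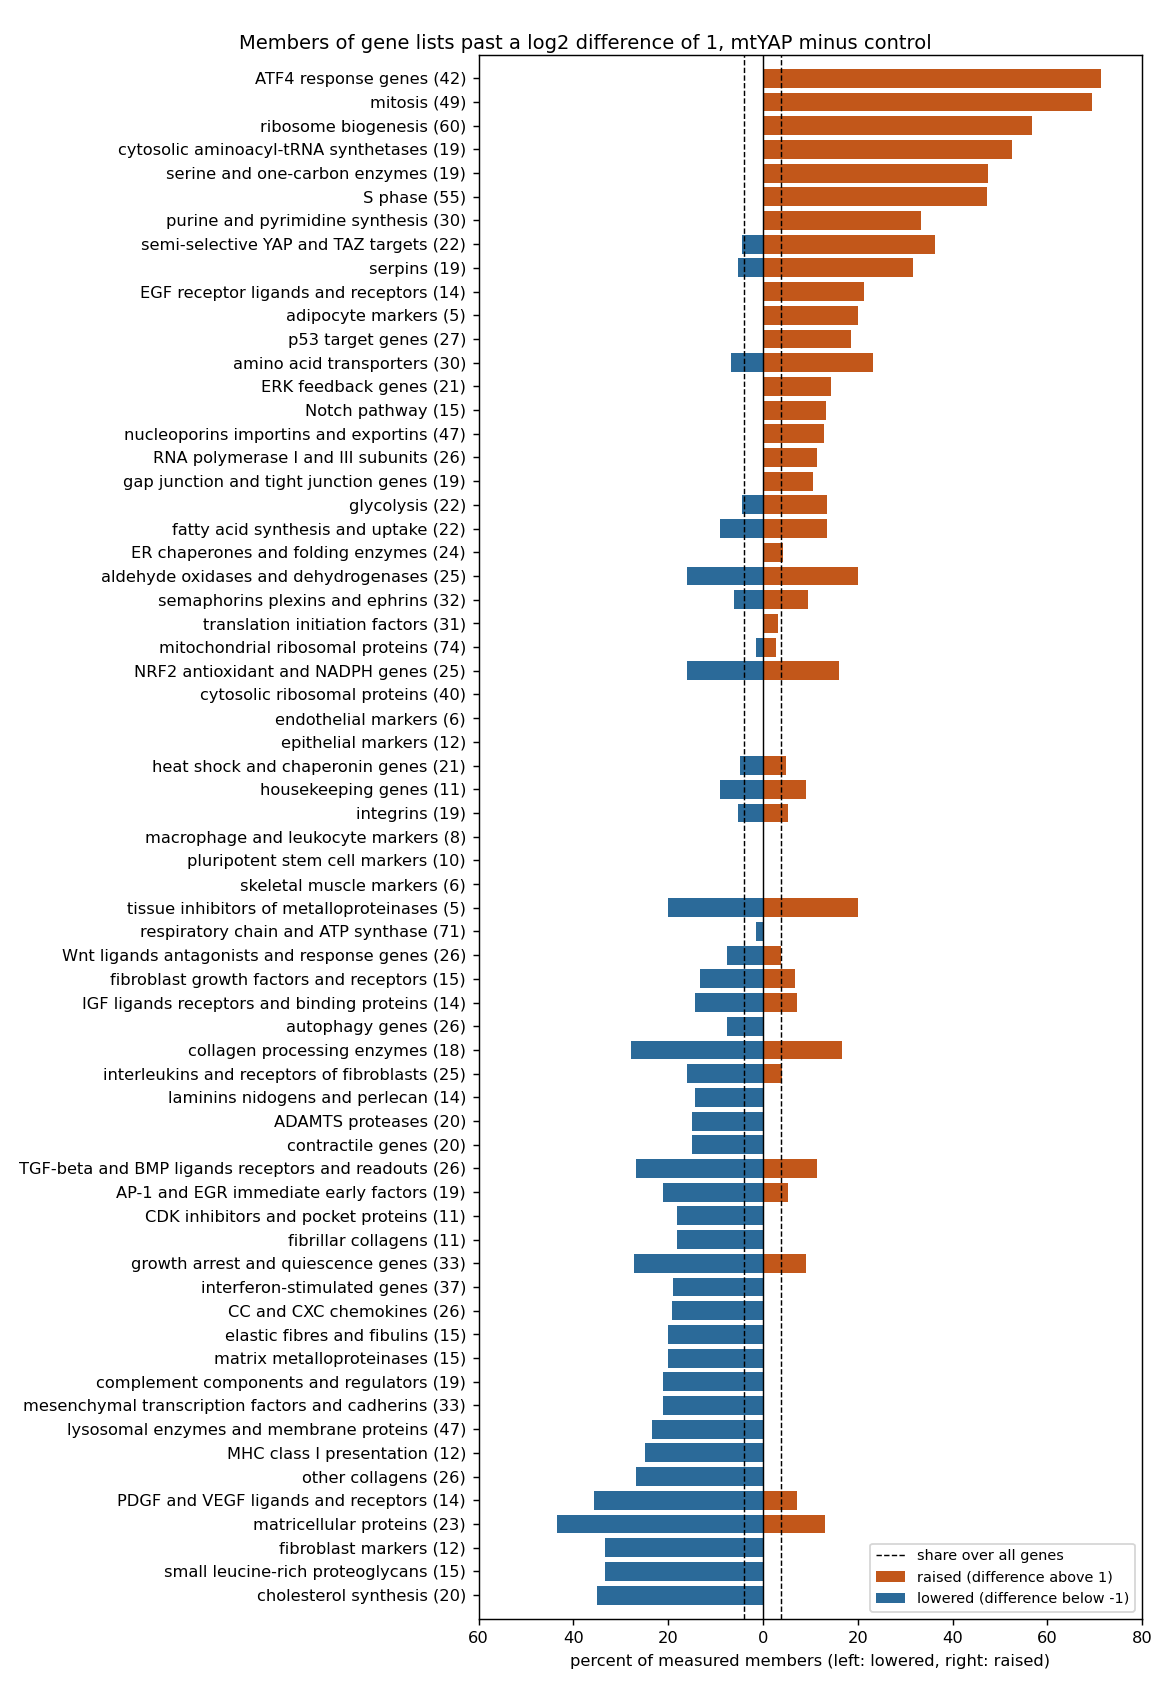
Percent of the measured members of each of the 65 gene lists (number of members in brackets) that were raised (right) or lowered (left) in mtYAP against control, ordered by the percent raised minus the percent lowered, with dashed lines at the 3.77% raised and 4.06% lowered over all genes. ATF4 response genes (71.4% raised) and mitosis genes (69.4%) stand at the top and matricellular proteins (43.5% lowered) have the longest bar to the left, while lists such as the NRF2 genes (16% each way) have bars on both sides.

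Lowered and raised genes were also looked at by their place in the genome, as medians over 11 neighbouring measured genes in the order of the RefSeq gene table. Over 17934 such windows the median was 0.02, and the 1st and 99th percentiles were -0.39 and 0.36. The lowest window, at -1.66, lay in the protocadherin beta cluster on chromosome 18. Protocadherins of this cluster are neuronal-type cell surface receptors, each encoded by 1 large exon and expressed in combinations. Of 22 measured Pcdhb genes, 11 were lowered, against 4.06% of all genes, and none was raised. The 13 of them at 4 or more in control were all below 0. The 9 under 4 in control, where little could fall, had none lowered. This split uses the control level, which is part of each difference and so favours falls among the 13. It is no separate support for a fall of the cluster. Pcdhb9 went from 7.58 to 3.41, Pcdhb3 from 6.57 to 3.88 and Pcdhb17 from 7.93 to 5.71. Pcdhgc4, of the adjoining gamma cluster, went from 8.12 to 5.70. The nearest flanking genes did not share this, with Zmat2 at 6.05 and 6.03 and Hdac3 at 8.42 and 8.23. Farther out Gnpda1, an enzyme of glucosamine breakdown, went from 8.14 to 7.02. The Pcdhb genes are close paralogs, so probe sets may read more than 1 of them and the 11 are not independent measurements. On the YAP array Pcdhb9 stood at 5.30 and Pcdhb17 at 6.93, between the other arrays.

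The highest window, at 1.30, lay on chromosome 5 from Steap2 to Abcb1b and held 6 raised genes. That median is the value of Abcb1b, which stayed under 6 on both arrays. Steap1 and its neighbour Steap2, both metalloreductases, read 7.28 and 6.52 in control and 10.75 and 7.93 in mtYAP. Adam22, a protease-like adhesion protein, went from 3.90 to 7.37, with its probe sets at 2.16 and 4.79. Dbf4, the activator of the CDC7 kinase of DNA replication, went from 5.04 to 6.57, with its probe sets at 0.6 and 2.46. Slc25a40, a mitochondrial carrier, went from 7.55 to 9.35. The drug exporter Abcb1b went from 4.51 to 5.82, with its probe sets at 0.24 and 2.37. The genes between were not raised, among them Sri, sorcin, at 7.47 and 6.80. Copy number was not measured.

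**Figure D5:**
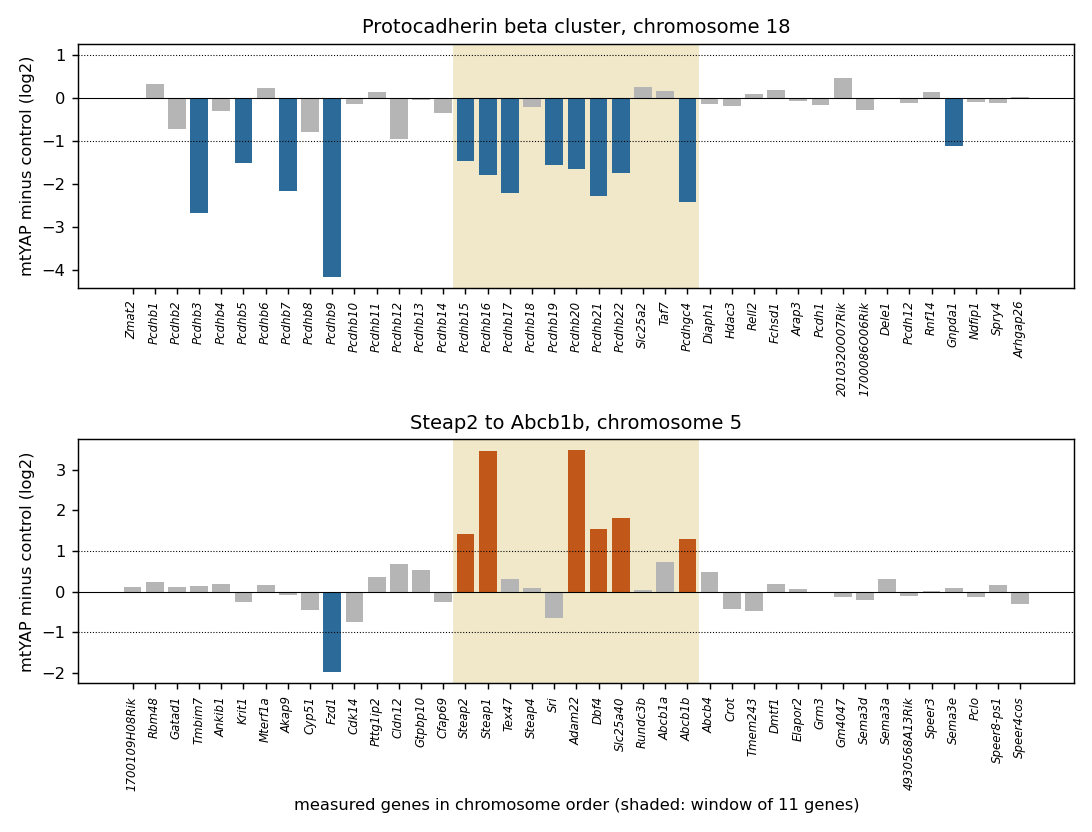
Difference of each measured gene (mtYAP minus control, log2, vertical axis) in chromosome order around the protocadherin beta cluster (top) and the stretch from Steap2 to Abcb1b (bottom), with dotted lines at 1 and -1 and the window of 11 genes shaded. The lowered genes of the top panel are Pcdhb genes and Pcdhgc4, with Gnpda1 (-1.12) farther to the right, and the 6 raised genes of the bottom panel lie within the shaded stretch.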

How the data were processed

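Total RNA was labelled and hybridized by the authors to Affymetrix mouse genome arrays. The authors deposited log2 levels, background-subtracted and normalized by RMA. The submitters' processing notes also name affy, without versions. Normalization sets the arrays to a common distribution, so a shift of all genes together would not be seen. Names came from the platform annotation, and 932 probe sets naming several genes and 9160 naming none were left out. Levels were averaged per gene and subtracted. No test was run, with 1 array per condition. The 65 gene lists were written from general knowledge, and members, lists and motifs were chosen with earlier results of these data known. Named genes are the 12 with the largest differences each way at a level of 6 on both arrays whose probe sets move together, those passing between 9 and under 6, up to 4 members per list with the largest difference at a level of 6, marker and housekeeping genes, and genes of the leading windows. Some further members were named with their values in view, to account for counts of 5 or fewer or to show a member near control. List symbols were matched directly or, for 7 genes, through a synonym in the RefSeq table of GRCm38.p6. Promoters and gene order come from RefSeq, and 542 of the raised and 582 of the lowered genes had a promoter. The counting was tested on simulated data. Alternatives tried were each gene's probe set of highest mean level, no _s, _x or _a probe sets, removal of the median difference or of a loess (span 0.3), level limits of 6 and 8, a limit of 1.5, wider windows of 21 genes and, added after the data were seen, list medians under the probe set and centring alternatives. Python 3.11.15, numpy 2.4.6, pandas 2.3.3, statsmodels 0.14.6 and matplotlib 3.10.9 were used.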

Additional observations from a re-analysis of the deposited data

How the results depend on the processing

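With the probe set of the highest mean level, without _s, _x or _a probe sets, or with the median difference or a loess on level removed, raised genes numbered 598 to 886 and lowered genes 663 to 937, beside 686 and 739. A level of 6 on either array left 545 and 585, which is within 1.5 times the main counts. A mean level of 6 over both arrays left 440 raised and 440 lowered genes, a level of 8 on either array left 276 and 268, and a limit of 1.5 left 260 and 313. These smaller counts follow from fewer genes entering or from the higher limit. Of the 65 lists, the raised and the lowered count moved by over 1.5 times in 9 each with the highest probe set, in 7 and 8 without _s, _x or _a probe sets, in 10 and 16 at a mean level of 6, in 18 and 27 at a level of 8 and in 22 and 29 at a limit of 1.5. None of the named genes past the limit of 1 changed direction under the probe set and centring alternatives. With the probe set of the highest mean level, list medians changed sign for matrix metalloproteinases (0.13 to -0.22), for PDGF and VEGF genes (-0.17 to 0.025) and for immediate early factors (-0.18 to 0.01), and the cause was not tested. Over 21 genes the window from Steap2 to Abcb1b fell to a median of 0.35, since more unmoved neighbours entered, while that of the protocadherin cluster was -1.46. With members at 6 on either array alone the medians were 1.67 and -2.01. All such members of the protocadherin window were under 6 in mtYAP and passed through control, so this filter favours a lower median there. In the window from Steap2 to Abcb1b, Adam22 and Dbf4 passed through mtYAP alone. These medians are therefore no separate support. No paired analysis was possible because each condition has 1 array. That number limits the precision, and readings near background limit the size of the differences of genes that crossed the level of 6.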

Other observations

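Several enzyme and surface protein families held members that moved in opposite directions. Among aldehyde oxidases, dehydrogenases and retinoid genes, 5 of 25 were raised (20%) and 4 lowered (16%), against 3.77% and 4.06% of all genes. Aox3 and Aox1, oxidases encoded side by side, read 8.54 and 7.68 in control and 2.88 and 3.85 in mtYAP. Aldh1a1, which makes retinoic acid, went the other way, from 4.66 to 7.88, while Crabp1, a binding protein for retinoic acid, went from 11.71 to 9.83 and Rdh10, which makes retinal, from 8.27 to 6.69. Among serpins 6 of 19 were raised (31.6%) and 1 lowered (5.3%). Of the 6, 5 belong to clade B, among them Serpinb9g at 2.03 and 5.15 and Serpinb9b at 5.61 and 8.42. Clade B serpins are close paralogs, so their probe sets may read more than 1 gene, and Serpinb9b was the only raised one at 6 or more.

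Cell contacts and fuel use gave further single genes. Gja1, the gap junction protein connexin 43, read 5.74 in control and 8.44 in mtYAP over 6 probe sets. In glycolysis 3 of 22 genes were raised (13.6%), among them hexokinase Hk2 at 7.59 and 8.75. Ldhb alone was lowered (4.5%), at 9.91 and 8.69, beside Ldha at 11.13 and 11.97. In the Notch list the ligand Jag1 (4.85 and 6.17) and the DNA-binding factor Rbpj (8.11 and 9.94) were the 2 raised of 15 (13.3%). Of 25 NRF2 and glutathione genes 4 were raised and 4 lowered (16% each). Gclc, which starts glutathione synthesis, read 6.81 and 7.96, and Gstm1 read 8.46 and 6.75. Among 11 housekeeping genes Hprt was raised, by 1.22, and Gusb lowered, by -1.10.

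The lowest windows after the protocadherin cluster had medians of -0.94 on chromosome 7, where Gm2115 went from 7.32 to 4.84 and the hyaluronan-degrading protein Cemip from 6.87 to 5.29, and of -0.88 on chromosome 3, which held 3 histone genes and Txnip. In that stretch H2ac19 went from 7.56 to 6.32 and Lix1l from 8.64 to 7.30. Histone genes are close paralogs and may share probe sets.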
